A study of Mus musculus with 21 samples.

Results

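The histone deacetylase (HDAC) family was followed through the differentiation of mouse erythroid progenitors, as the 10 genes Hdac1 to Hdac9 and Hdac11 found by symbol among the 22483 genes of the deposited tables. Hdac10 was not among the genes followed, so sums and shares of HDAC transcripts are those of these 10 genes alone. Polyadenylated RNA was sequenced with strand kept from MEDEP cells, an erythroid progenitor line made from mouse embryonic stem cells, here the BRC5 line. Cells were taken at 12, 24, 36, 48 and 72 h after stem cell factor (SCF) and dexamethasone were taken away and 4 U/ml erythropoietin (Epo) was given, and at 12 h of the same with the heme synthesis blocker succinyl acetone (SA). The 0 h cells, still growing with SCF and dexamethasone, were the starting point. Each of the 7 groups held 3 libraries, called biological replicates in the design text, and all came from the same culture line, so the p-values describe the spread between cultures of 1 line. The comparisons ask which HDAC transcripts change as the progenitors mature, and whether blocked heme synthesis changes them at 12 h.

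Histone deacetylases remove acetyl groups from lysines of histones and other proteins, and acetylated histones are typical of active chromatin. Class I enzymes (Hdac1, Hdac2, Hdac3 and Hdac8) are mostly nuclear, and all but Hdac8 work inside large corepressor complexes: Hdac1 and Hdac2 in NuRD, SIN3 and CoREST, and Hdac3 in the complex built around NCoR. Class IIa proteins (Hdac4, Hdac5, Hdac7 and Hdac9) have weak catalytic activity, bind MEF2 transcription factors, and are held in the cytoplasm by 14-3-3 proteins once kinases phosphorylate them. Hdac6 (class IIb) is cytoplasmic and deacetylates tubulin, and Hdac11 is the lone class IV enzyme. Red cell precursors condense their chromatin and expel the nucleus, and HDAC activity is needed for this in mouse cells in culture.

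The libraries held 16.7 to 39.3 M estimated counts, and 12360 genes had enough counts to be tested, all 10 HDAC genes among them. Levels over time are given as CPM, counts-per-million after TMM normalization, and levels between genes as TPM (transcripts-per-million), which takes transcript length into account. Globin transcripts made up 79.9 to 89.2% of the TPM at 72 h, against 0.127 to 0.203% at 0 h. Over all tested genes the median log2 change of 72 h against 0 h was -0.13 on the TMM scale. On the log2(TPM + 1) scale it was -3.27. The changes below were not centred on the all-gene median, so each is to be read beside the median of its step and scale. The summed level of 10 erythroid markers was 424082 to 818829 CPM at 72 h, against 965 to 1156 CPM at 0 h. The 6 megakaryocyte markers summed to 599 to 993 CPM at 72 h, against 17.3 to 21.9 CPM at 0 h, with Ppbp at 0 in both groups and Pf4 at 0 at 0 h. Their part in the HDAC changes was not tested. In 36 h replicate 1 the 8 stromal markers summed to 25.1 CPM, and in the other 20 libraries they lay between 0.0660 and 1.71 CPM. In bulk RNA, fewer cells of a kind cannot be told apart from less RNA per cell.

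The makeup of the HDAC transcripts turned over during differentiation, with Hdac5 taking the place of Hdac1 as the most abundant member. Of the summed TPM of the 10 genes in a library, Hdac5 made up 69.9, 72.7 and 65.9% at 72 h, against 2.31, 1.98 and 2.14% at 0 h. Hdac1 made up 14.3, 12.8 and 16.8% at 72 h, against 35.8, 36.6 and 37.2% at 0 h. Hdac2 had 2.49 ± 0.35% at 72 h, against 27.0 ± 1.2% at 0 h, and Hdac7 had 0.153 ± 0.056%, against 12.4 ± 0.65% (SD, n = 3 each). These shares are taken within a library, so no scaling between libraries enters them.

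As a class, the 4 class I genes held 24.0 ± 2.3% of the HDAC TPM at 72 h, against 81.9 ± 0.94% at 0 h, a difference of -57.9 percentage points. The class IIa genes held 70.3 ± 3.4% at 72 h, against 16.4 ± 0.82% at 0 h. The libraries of the 2 times did not overlap in either class, and the 2-sided exact permutation test gave p = 0.1 for each, the smallest value that 3 against 3 libraries allow. Between these times the class I share was 87.7 ± 0.64% at 12 h, 85.6 ± 0.81% at 24 h, 59.1 ± 6.0% at 36 h and 39.0 ± 2.5% at 48 h. So the class I share was above its 0 h level at 12 and 24 h and below it from 36 h on, with no overlap of libraries with 0 h at any of them. The class IIa share had its lowest mean at 12 h (6.43 ± 0.42%), where Hdac7 had fallen and Hdac5 was still low, but the 12 h libraries (6.17 to 6.92%) overlapped with those at 24 h (6.85 to 7.91%).

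**Figure D1:**
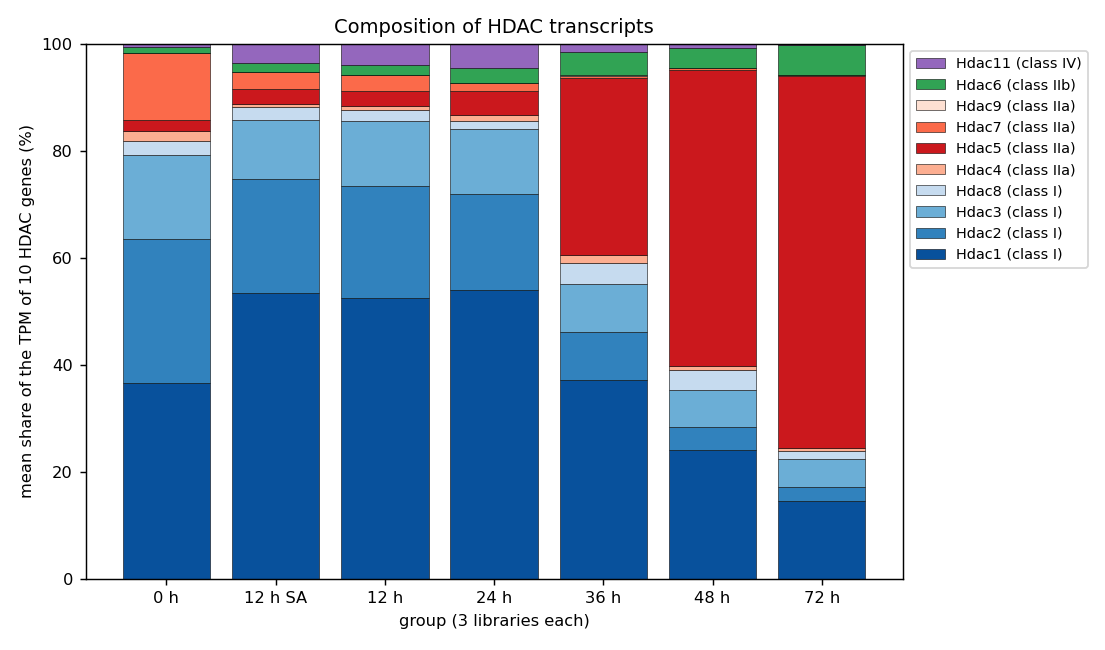
Mean share (percent, y axis) of each HDAC gene in the summed TPM of the 10 genes, in the 7 groups of 3 libraries (x axis), with blue for class I, red for class IIa, green for Hdac6 and purple for Hdac11. The Hdac5 segment is 69.5% of the bar at 72 h, and the 4 blue segments add up to 24.0% there, against 81.9% at 0 h.

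The order of the members by TPM followed the same turnover. At 0 h it was Hdac1, Hdac2, Hdac3, Hdac7 and Hdac8, each above the next in every library, followed by Hdac5 and Hdac4, which overlapped, and then Hdac6, Hdac11 and Hdac9. At 24 h Hdac1, Hdac2 and Hdac3 still led, and Hdac5 and Hdac11, which overlapped, came next. At 36 h Hdac1 (19.8 to 28.6 TPM) and Hdac5 (18.6 to 23.8 TPM) overlapped at the top. At 48 and 72 h Hdac5 led, Hdac1 was second, and Hdac9 had the lowest level, though at 72 h the libraries of Hdac4, Hdac11, Hdac7 and Hdac9 overlapped from one to the next. The ratio of Hdac5 to Hdac1 TPM within a library was 0.0588 ± 0.0054 at 0 h, 0.0537 ± 0.0028 at 12 h, 0.0827 ± 0.0098 at 24 h, 0.913 ± 0.28 at 36 h, 2.33 ± 0.40 at 48 h and 4.84 ± 0.89 at 72 h. It passed 1 in 1 of the 3 libraries at 36 h and in all 3 at 48 h. The ratio of Hdac2 to Hdac1 went the other way, with 0.739 ± 0.039 at 0 h, 0.398 ± 0.016 at 12 h, 0.332 ± 0.0088 at 24 h, 0.247 ± 0.038 at 36 h, 0.175 ± 0.014 at 48 h and 0.171 ± 0.015 at 72 h, so the 2 close paralogs did not move in parallel.

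**Figure D2:**
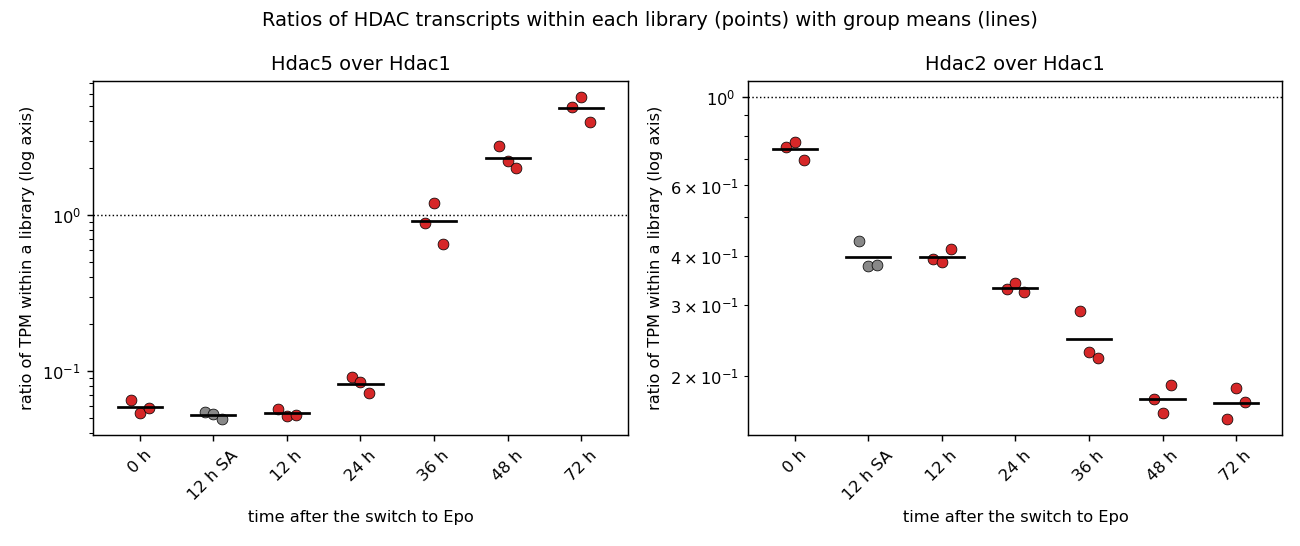
Ratio of TPM within each library (log axis) of Hdac5 over Hdac1 (left) and Hdac2 over Hdac1 (right), with points for libraries, lines for group means and grey points for 12 h with SA. The Hdac5 ratio averages 4.84 at 72 h, against 0.0588 at 0 h, and the Hdac2 ratio averages 0.171 at 72 h, against 0.739 at 0 h.

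All 10 members varied over the course when the 5 later times were tested against 0 h together (edgeR's quasi-likelihood test, Benjamini-Hochberg adjustment over all genes). That held for 97.6% of all genes tested, so it does not set the family apart. At 72 h against 0 h, 3 members were higher and 7 lower on the TMM scale, where 89.8% of all genes were called (43.3% higher and 46.5% lower). On the log2(TPM + 1) scale, with 9 members tested, 1 was higher and 8 were lower (limma), where 5.26% of all genes were called higher and 90.9% lower. The members' median log2 change was -1.72 (all genes -0.13) on the TMM scale and -3.29 (all genes -3.27) on the TPM scale.

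**Figure D3:**
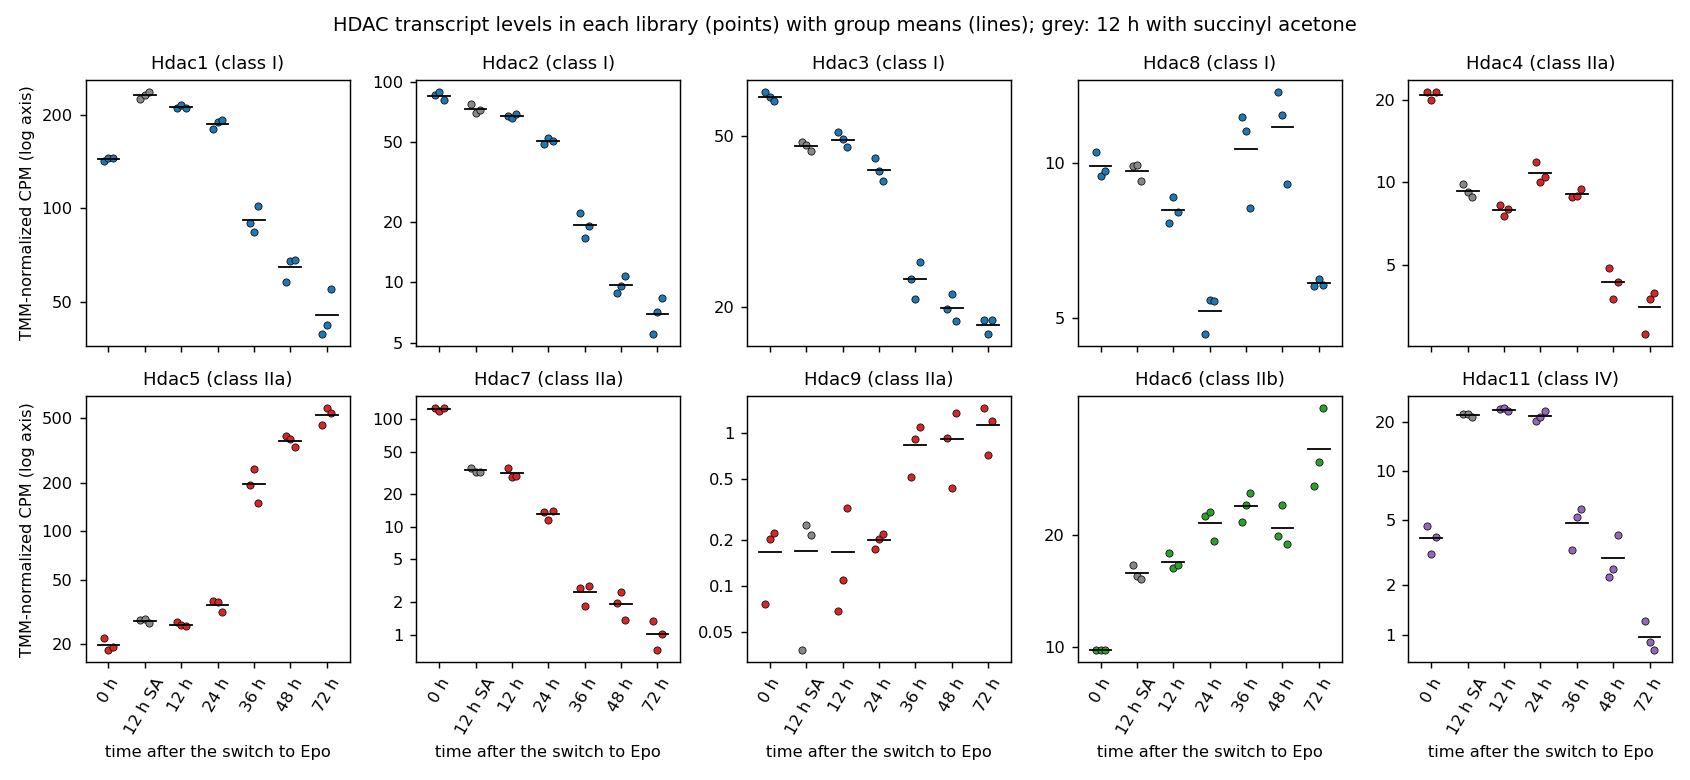
TMM-normalized CPM (log axis, a range of its own per panel) of each HDAC gene in each library, with points for libraries, lines for group means and grey points for 12 h with SA. Hdac5 averages 523 CPM at 72 h, against 19.7 CPM at 0 h, Hdac7 averages 1.01 CPM, against 125 CPM, and Hdac11 is high at 12 and 24 h, with 23.9 and 21.7 CPM. On the TPM scale Hdac6 is lower at 72 h than at 0 h, opposite to the panel.

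Hdac5, a class IIa protein that represses MEF2 targets and moves between nucleus and cytoplasm, had the largest rise in the family. Its gene lies on the minus strand at chr11:102194432-102230166 (GRCm38, GENCODE M21, exons and introns of a protein-coding gene). Its libraries had 21.8, 18.3 and 19.1 CPM at 0 h, 27.4, 26.1 and 25.8 CPM at 12 h, and 37.2, 36.6 and 31.6 CPM at 24 h. They had 193, 242 and 149 CPM at 36 h, 386, 374 and 331 CPM at 48 h, and 455, 579 and 536 CPM at 72 h. Each time lay above the one before with no overlap, and the widest gap was between 24 and 36 h. There the log2 change was 2.47 ± 0.14 (SE; edgeR adjusted p = 1.98e-12), and 2.46 without 36 h replicate 1. In TPM the same step was smaller, 0.37 ± 0.15 (limma adjusted p = 0.0198), with a mean of 21.4 TPM at 36 h, against 16.2 TPM at 24 h. For 72 h against 0 h it was 4.73 ± 0.15 (edgeR adjusted p = 3.76e-17), a 26.5-fold rise that ranked 937th of the 12360 genes from the top.

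On the TPM scale Hdac5 was also higher at 72 h, with 23.9, 16.8 and 26.3 TPM, against 12.0, 10.3 and 11.6 TPM at 0 h. That log2 change was 0.91 ± 0.15 (limma adjusted p = 4.26e-06), at a time when the median gene had -3.27. The rises of the steps 12 h against 0 h (0.42 ± 0.13, edgeR adjusted p = 0.0108) and 24 h against 12 h (0.41 ± 0.13, edgeR adjusted p = 0.0159) were weaker evidence. Without 0 h replicate 2 the first had an edgeR adjusted p of 0.0521. The second lost its call without 12 h replicate 2 or 3 or 24 h replicate 1 or 2, with edgeR adjusted p-values of 0.0505 to 0.0625, and was 0.13 on the TPM scale (limma adjusted p = 0.490). The later rises were 0.90 ± 0.13 at 48 h against 36 h (edgeR adjusted p = 9.09e-06), and then 0.53 ± 0.13 at 72 h over 48 h (edgeR adjusted p = 0.0014). On the TPM scale these were 0.23 and -0.18, neither past the threshold, so between 48 and 72 h the direction depended on the scale.

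Because the largest rise, the largest fall and the transient peak on the TMM scale belonged to Hdac5, Hdac7 and Hdac11, their promoters are shown. They are from RefSeq (GRCm38.p6), each with 250 bases before and 50 after the annotated start, 5′ to 3′ on the gene's strand. Promoters were found for 8 of the 10 members, 12 in all. Capitals mark matches on either strand to a motif. The one for GATA factors was AGATAA, the one for KLF factors CCNCNCCC, the one for ETS factors CCGGAAG, and the E-box CACGTG. Neighbouring KLF matches can overlap.
Hdac5 at chr11:102230123-102230422, minus strand: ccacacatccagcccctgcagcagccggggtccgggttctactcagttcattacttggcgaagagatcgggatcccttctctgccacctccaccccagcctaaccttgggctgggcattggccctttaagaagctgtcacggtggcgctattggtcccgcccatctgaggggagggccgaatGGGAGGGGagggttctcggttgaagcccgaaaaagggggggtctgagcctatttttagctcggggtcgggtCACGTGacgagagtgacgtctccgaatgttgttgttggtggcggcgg
Hdac7, 1 of its 4 listed promoters, at chr15:97831446-97831745, minus strand: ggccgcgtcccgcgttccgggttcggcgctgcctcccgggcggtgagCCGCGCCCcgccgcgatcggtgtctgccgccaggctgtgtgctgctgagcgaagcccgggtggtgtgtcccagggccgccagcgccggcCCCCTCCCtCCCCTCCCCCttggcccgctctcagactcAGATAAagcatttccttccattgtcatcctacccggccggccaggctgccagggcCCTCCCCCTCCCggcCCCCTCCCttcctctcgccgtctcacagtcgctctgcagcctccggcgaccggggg
Hdac11 at chr6:91156565-91156864, plus strand: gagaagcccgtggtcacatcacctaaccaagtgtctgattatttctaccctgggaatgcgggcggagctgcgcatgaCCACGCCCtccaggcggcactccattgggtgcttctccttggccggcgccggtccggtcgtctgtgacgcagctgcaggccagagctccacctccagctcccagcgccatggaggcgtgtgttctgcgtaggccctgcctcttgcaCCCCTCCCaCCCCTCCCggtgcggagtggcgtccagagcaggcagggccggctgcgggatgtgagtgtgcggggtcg
The Hdac5 window held 1 KLF match, first base at -68 counted from the start, and 1 E-box match at 3. The Hdac7 window held 7 KLF matches and 1 GATA match, at -76, and the Hdac11 window held 3 KLF matches. The printed Hdac7 window had the most matches of its 4: the other 3 held 1, 0 and 0 KLF matches and no GATA match, with a GC content of 54.7, 65.7 and 60.7%. Of all 32851 promoters in the table, 49.47% held the KLF letters, 11.18% the GATA letters, 8.86% the ETS letters and 7.15% the E-box letters. The Hdac4 window, not printed, held 5 KLF matches and no GATA, ETS or E-box match, with a GC content of 68.0%. None of the 4 motifs was in the windows of Hdac2, Hdac6, Hdac8 and Hdac9. The GC content was 60.7% in the Hdac5 window, 73.7% in that of Hdac7 and 66.7% in that of Hdac11, against a median of 52.7% over all promoters. No binding was measured in these libraries, so the matches describe the letters of the windows.

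Hdac7, the class IIa member known from endothelial cells and thymocytes, had the largest fall on the TMM scale. Its gene lies at chr15:97792664-97844502 on the minus strand and overlaps Slc48a1, on the other strand, by 29 bases. Its libraries had 126, 120 and 127 CPM at 0 h, 35.4, 29.2 and 29.5 CPM at 12 h, and 13.9, 11.7 and 14.2 CPM at 24 h. They had 2.72, 1.83 and 2.84 CPM at 36 h, 1.95, 2.51 and 1.36 CPM at 48 h, and 1.33, 0.713 and 1.00 CPM at 72 h. Every step but 48 h against 36 h was free of overlap. The log2 change was -1.99 ± 0.12 at 12 h against 0 h (edgeR adjusted p = 1.65e-11), -1.25 ± 0.12 at 24 h against 12 h (edgeR adjusted p = 9.66e-08) and -2.46 ± 0.16 at 36 h against 24 h (edgeR adjusted p = 3.51e-11).

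At 72 h against 0 h Hdac7 was 122-fold lower (log2 change -6.93 ± 0.18, edgeR adjusted p = 2.86e-18). Of the 12360 genes, 0.218% had a value this low or lower, with Hdac7 itself counted. At 72 h its level rested on 11 to 21 counts a library, against 4745 to 6881 at 0 h. It was lower on the log2(TPM + 1) scale too, at -5.97 ± 0.10 (limma adjusted p = 1.29e-22), where Hdac2 had the larger fall, -6.31. The last step, -0.95 ± 0.26 at 72 h against 48 h, passed the test (edgeR adjusted p = 0.00399), but was -0.14 on the TPM scale (limma adjusted p = 0.195). The ratio of Hdac7 to Hdac5 TPM within a library was 0.00222 ± 0.00081 at 72 h, against 5.78 ± 0.30 at 0 h.

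Hdac4, a class IIa protein best known from cartilage and muscle, fell early, recovered in part and fell again. Its gene spans chr1:91928779-92195699 (minus strand). It had 2.79, 3.76 and 3.94 CPM at 72 h, against 21.3, 19.9 and 21.4 CPM at 0 h (log2 change -2.58 ± 0.12, edgeR adjusted p = 1.76e-14). Most of the fall was in place at 12 h, with 8.26, 7.57 and 7.97 CPM there (-1.40 ± 0.10 against 0 h, edgeR adjusted p = 2.94e-10). At 24 h it was higher again, with 11.9, 10.1 and 10.5 CPM (0.45 ± 0.10 against 12 h, edgeR adjusted p = 0.00141), but on the TPM scale this rise missed the threshold (0.30, limma adjusted p = 0.0523). It fell at 48 h against 36 h (-1.07 ± 0.13, edgeR adjusted p = 9.09e-07). Its call at 36 h against 24 h (-0.25, edgeR adjusted p = 0.042) was lost without 24 h replicate 1, 36 h replicate 1 or 36 h replicate 2 (edgeR adjusted p = 0.0845 to 0.160). That step was a larger fall in TPM, -1.40 ± 0.13 (limma adjusted p = 4.35e-10), where the median gene fell by 1.84. At 72 h against 48 h it gained a call without 48 h replicate 2 (edgeR adjusted p = 0.0256) or 72 h replicate 3 (edgeR adjusted p = 0.0287).

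Hdac9, the remaining class IIa gene (chr12:34047580-34917095, minus strand), was near the detection limit. Its counts were 10.8 to 22.9 a library at 72 h, against 4.00 to 12.0 at 0 h. It was called higher at 72 h against 0 h (2.74 ± 0.58, edgeR adjusted p = 0.000167), as it was between 36 and 24 h (2.06 ± 0.59, edgeR adjusted p = 0.00405). On the TPM scale it stood below the filter. With no filter that scale gave -0.0205 for the whole course, 72 h over 0 h, and 0.0142 for 36 h over 24 h, neither past the threshold.

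Of the class I genes, Hdac1 rose first and fell later. This catalytic subunit of NuRD, SIN3 and CoREST lies at chr4:129516104-129542713 (minus strand). Its libraries had 142, 146 and 145 CPM at 0 h, 211, 215 and 211 CPM at 12 h, and 180, 189 and 192 CPM at 24 h. They had 90.1, 83.9 and 102 CPM at 36 h, 58.1, 68.0 and 68.3 CPM at 48 h, and 39.3, 42.3 and 54.9 CPM at 72 h. On the TMM scale all libraries at 12 and 24 h lay above those at 0 h, and all later ones below. In TPM the 24 h libraries (191 to 207) overlapped with those at 0 h (186 to 201). The rise at 12 h against 0 h was 0.56 ± 0.10 (edgeR adjusted p = 6.31e-05), and the TPM scale gave 0.51 ± 0.20 (limma adjusted p = 0.0377). That TPM call was lost with a pseudocount of 0.1 (limma adjusted p = 0.0699) and with all genes kept (limma adjusted p = 0.0587).

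Hdac1 then fell by more than the spread at 36 h against 24 h (-1.03 ± 0.10, edgeR adjusted p = 1.08e-08), 48 h against 36 h (-0.50 ± 0.10, edgeR adjusted p = 0.000334) and 72 h against 48 h (-0.51 ± 0.10, edgeR adjusted p = 0.000235). At 72 h it stood 3.17-fold below 0 h (-1.66 ± 0.10, edgeR adjusted p = 2.02e-12). Its 24 h value did not pass against 12 h (-0.18 ± 0.10, edgeR adjusted p = 0.147), though the libraries did not overlap, and in a fit of those 6 libraries alone it was called lower (edgeR adjusted p = 0.00899).

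Hdac2, the paralog that shares those complexes and has been tied to chromatin condensation in mouse erythroblasts, fell without an early rise. Its gene lies at chr10:36974544-37001889 (plus strand). It had 85.8, 89.4 and 81.1 CPM at 0 h, 67.9, 66.3 and 69.1 CPM at 12 h, and 49.0, 52.5 and 50.6 CPM at 24 h. It had 22.3, 16.7 and 19.1 CPM at 36 h, 8.86, 9.58 and 10.8 CPM at 48 h, and 5.51, 7.13 and 8.34 CPM at 72 h. No 2 of these times overlapped, and each of the 5 steps passed the test on the TMM scale. The step 12 h against 0 h (-0.33 ± 0.10, edgeR adjusted p = 0.00752) missed it on the TPM scale (-0.38, limma adjusted p = 0.0535), and 72 h against 48 h (-0.47 ± 0.13, edgeR adjusted p = 0.00425) missed it in a fit of those 6 libraries alone (edgeR adjusted p = 0.115). At 72 h against 0 h it was 12.2-fold lower (-3.61 ± 0.12, edgeR adjusted p = 8.82e-17), and 7.26% of genes, with Hdac2 itself counted, had a value this low or lower.

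Hdac3, the enzyme of the NCoR complex (chr18:37935844-37955016, minus strand), had 18.6, 17.2 and 18.6 CPM at 72 h, against 63.6, 61.7 and 60.5 CPM at 0 h (-1.77 ± 0.08, edgeR adjusted p = 1.32e-14). The largest single step of this fall was 36 h against 24 h (-0.86 ± 0.08, edgeR adjusted p = 5.55e-09), with 23.2, 20.9 and 25.5 CPM at 36 h. From 36 h on its libraries overlapped from one time to the next on the TMM scale. The fall at 48 h against 36 h (-0.22, edgeR adjusted p = 0.0386) was lost without 36 h replicate 1 or 3 or 48 h replicate 1 or 3 (edgeR adjusted p = 0.0757 to 0.173). Its fall at 24 h against 12 h (-0.23, edgeR adjusted p = 0.0171) was lost without 12 h replicate 1, 24 h replicate 2 or 24 h replicate 3 (edgeR adjusted p = 0.0565 to 0.0875). At 72 h against 48 h its value was -0.13, not called, and 0.00503 with the size factors of DESeq2. The TPM scale called both late steps lower without overlap of libraries, at -0.73 for 48 h over 36 h (limma adjusted p = 0.000199) and -0.63 for 72 h over 48 h (limma adjusted p = 0.000799). The median gene had -0.47 and -0.45 in these steps on that scale.

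Hdac8, a class I enzyme that deacetylates the cohesin subunit SMC3, was the one class I gene whose TMM level was not lowest at 72 h. It had 10.5, 9.44 and 9.63 CPM at 0 h, 7.64, 8.60 and 8.05 CPM at 12 h, and 4.66, 5.43 and 5.39 CPM at 24 h. It had 12.3, 11.5 and 8.19 CPM at 36 h, 13.7, 12.4 and 9.12 CPM at 48 h, and 5.77, 5.96 and 5.81 CPM at 72 h. The lowest levels were at 24 and 72 h, and those at 36 and 48 h overlapped with 0 h. The rise at 36 h against 24 h was 1.06 ± 0.14 (edgeR adjusted p = 9.19e-07). On the TPM scale the same step was a fall of -0.85 ± 0.10 (limma adjusted p = 2.06e-08), smaller than the -1.84 of the median gene. The last fall, 72 h over 48 h (-1.02 ± 0.15, edgeR adjusted p = 6.31e-06), held in TPM (-0.81), where the median gene had -0.45. That of the whole course, 72 h over 0 h, was -0.75 ± 0.14 (edgeR adjusted p = 5.60e-05). In TPM Hdac8 had -3.29 over the whole course, near the -3.27 of the median gene. At 12 h against 0 h it missed the threshold (-0.28, edgeR adjusted p = 0.0705) and passed with the replicate number as a block (edgeR adjusted p = 0.0491), with the size factors of DESeq2 (edgeR adjusted p = 0.0389) and in a fit of those 6 libraries alone (edgeR adjusted p = 0.0176). It also passed by DESeq2 itself (adjusted p = 0.0263) and on the TPM scale (-0.34, limma adjusted p = 0.00487). Its gene (chrX:102284639-102505359, minus strand) is overlapped by Gm14858 on the other strand over 80860 bases, and reads of both cannot be told apart if strand was not used in counting.

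Hdac6, the tubulin deacetylase, needed for enucleation of mouse erythroblasts in culture, was higher at 72 h only on the TMM scale. Its gene lies at chrX:7930120-7947889 (minus strand). It had 27.1, 31.6 and 44.1 CPM at 72 h, against 9.79, 9.77 and 9.78 CPM at 0 h (1.81 ± 0.14, edgeR adjusted p = 5.47e-11), whereas in TPM it had 1.59, 1.12 and 2.79, against 5.56, 5.62 and 5.94 (-1.29 ± 0.15, limma adjusted p = 2.10e-08). The direction of this change depended on the scale, and its TPM fall was smaller than that of the median gene. Its rise at 12 h against 0 h passed on both scales, with 17.9, 16.3 and 16.6 CPM at 12 h (TMM 0.79 ± 0.13, edgeR adjusted p = 3.22e-05). Within a library Hdac6 over Hdac1 was 0.373 ± 0.046 in TPM at 72 h, against 0.0297 ± 0.00023 at 0 h, a ratio that no scaling between libraries enters. The call at 24 h against 12 h (0.35, edgeR adjusted p = 0.0331) was lost without 12 h replicate 2 or 3 or 24 h replicate 1 or 2 (edgeR adjusted p = 0.0929 to 0.128).

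Hdac11, the class IV enzyme, which also removes long fatty acyl groups from lysines, was transient. Its gene lies at chr6:91156665-91174692 (plus strand). It had 4.64, 3.10 and 3.98 CPM at 0 h, 23.9, 24.4 and 23.2 CPM at 12 h, and 20.3, 21.4 and 23.5 CPM at 24 h. It had 3.31, 5.25 and 5.85 CPM at 36 h, 2.25, 2.51 and 4.08 CPM at 48 h, and 1.20, 0.907 and 0.801 CPM at 72 h. On the TMM scale the libraries at 12 and 24 h overlapped each other and lay above those of the other times. In TPM they did not overlap, and 24 h was lower than 12 h (-0.36 ± 0.13, limma adjusted p = 0.0320). The median gene had -0.32 in that step, so this fall was near that of genes in general. The rise at 12 h against 0 h was 6.07-fold (2.60 ± 0.16, edgeR adjusted p = 2.26e-11), the largest of the family in this step, and 2.31 ± 0.13 on the TPM scale (limma adjusted p = 4.07e-12). The fall at 36 h against 24 h was -2.18 ± 0.17 (edgeR adjusted p = 4.87e-10) and -3.12 ± 0.13 on the TPM scale (limma adjusted p = 2.60e-15). At 72 h its level rested on 12 to 19 counts a library, and it was below 0 h (-2.01 ± 0.25, edgeR adjusted p = 2.15e-07). The call at 48 h against 36 h (-0.74, edgeR adjusted p = 0.00763) was lost without 48 h replicate 1 (-0.57, edgeR adjusted p = 0.0583).

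Step by step, the calls of the members are read against the share of all genes called (edgeR, TMM scale). At 12 h against 0 h, 4 members were higher and 4 lower, where 52.9% of genes were called, 25.3% higher and 27.6% lower. At 24 h over 12 h, 3 were higher and 4 lower, where 41.1% were called (19.1% higher, 22% lower), and leaving out 24 h replicate 2 left 4 of these 7 calls. At 36 h over 24 h, 3 were higher and 6 lower, where 73.2% were called (34.1% higher, 39% lower). Without 36 h replicate 1, the library with stromal transcripts, 8 members were called in that step. Then 48 h over 36 h had 1 higher and 5 lower, where 49.8% were called (20% higher, 29.7% lower), and 5 members were called without 36 h replicate 1. The step of 72 h over 48 h had 2 higher and 5 lower, where 59.2% were called (24.7% higher, 34.5% lower).

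The TPM scale gave fewer rises after 12 h, for the members as for all genes (limma, 9 members tested). In the first step 4 members were higher and 4 lower, where 20.9% of genes were higher and 31.1% lower. Then 24 h over 12 h had 0 higher and 5 lower, where 6.32% of genes were higher and 45% lower, and 36 h over 24 h had 1 and 8, where 4.3% were higher and 89.1% lower. The step to 48 h had 0 higher and 7 lower, where 2.58% of genes were higher and 62.5% lower, and the step to 72 h had 0 and 4, where 4.59% were higher and 59.3% lower. The all-gene medians of those 5 steps were -0.09, -0.32, -1.84, -0.47 and -0.45 on that scale, and the members' medians were -0.34, -0.48, -2.41, -0.53 and -0.31.

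With a fold of at least 2 required as well on the TMM scale, 7 members passed at 36 h against 24 h, where 41.2% of genes did. In the other 4 steps, in order, 3, 1, 1 and 2 members passed, where 17.7%, 9.43%, 13.3% and 25.5% of genes did. Hdac7, Hdac5, Hdac11 and Hdac9 changed by more than 4-fold between 36 and 24 h.

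**Figure D4:**
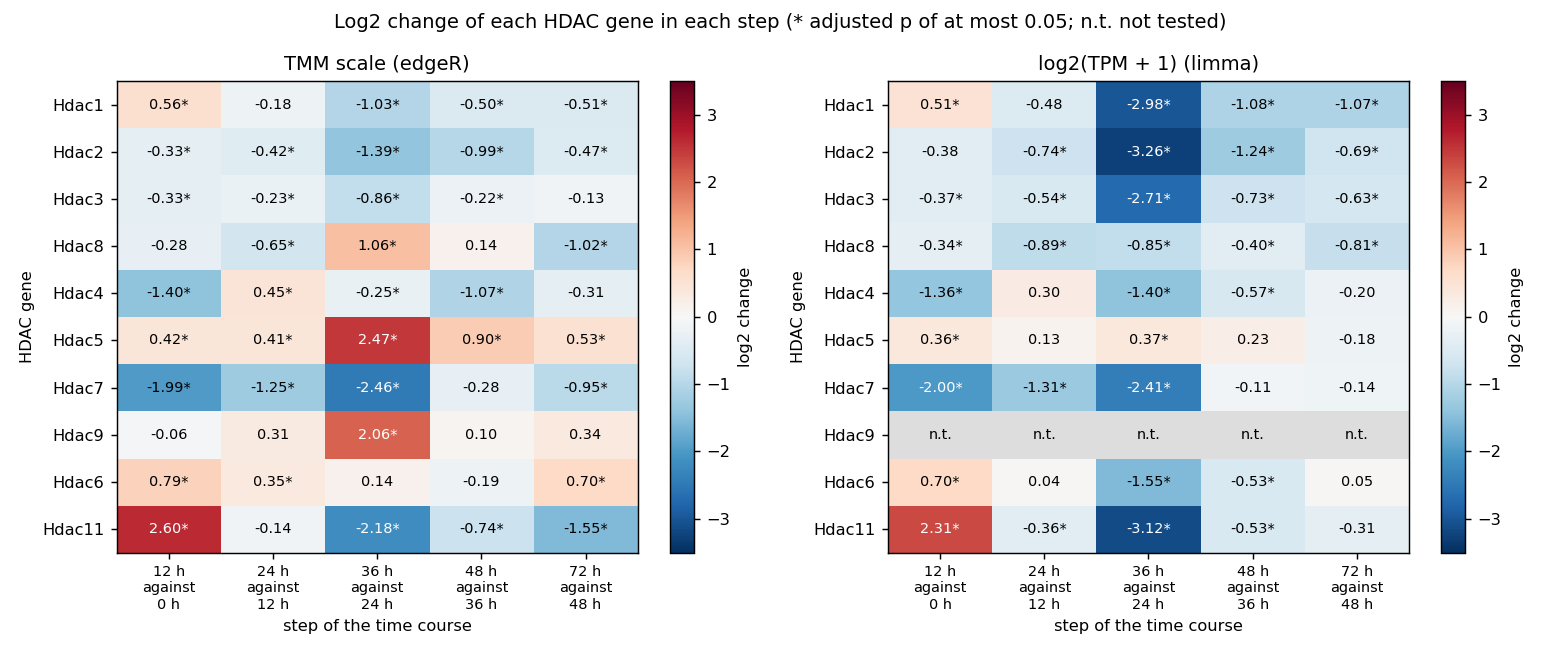
Log2 change of each HDAC gene (rows) in each of the 5 steps (columns) on the TMM scale (left, edgeR) and as log2(TPM + 1) (right, limma), with a star for an adjusted p of at most 0.05. Hdac8 at 36 h against 24 h is 1.06 on the left and -0.85 on the right, Hdac5 at 72 h against 48 h is 0.53 on the left and -0.18 on the right, and Hdac7 in the first 3 steps and Hdac11 at 12 h against 0 h have the same sign in both.

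Succinyl acetone changed no HDAC transcript past the threshold at 12 h. Of the 10 members 0 were called by edgeR and 0 by DESeq2 or by limma on TPM, where 0.38% of all genes were called by edgeR (0.0162% higher and 0.364% lower) and limma called 0.0315% higher and 0.346% lower. By edgeR 1 member (Hdac4) had an unadjusted edgeR p under 0.05. Hdac5 had 28.2, 28.5 and 26.9 CPM with SA, against 27.4, 26.1 and 25.8 CPM without it. Its log2 change was 0.08 with a 95% interval of -0.20 to 0.35. Hdac1 had 226, 231 and 237 CPM with SA, against 211, 215 and 211 CPM without it, and Hdac11 had 22.4, 22.3 and 21.4 CPM with SA, against 23.9, 24.4 and 23.2 CPM without it.

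The libraries of Hdac1, Hdac2, Hdac4 and Hdac8 lay above, and those of Hdac11 below, the 12 h libraries without overlap, 5 of 10 members, where 24.2% of all genes did not overlap. On the TMM scale the changes in these 5 were small: Hdac4 had the clearest, 0.23 with an interval of 0.02 to 0.44 (edgeR adjusted p = 0.741), and Hdac8 had 0.26 with an interval of -0.01 to 0.52 (edgeR adjusted p = 0.840). For 9 of the members the interval reached no further than 0.52 in size. That of Hdac9 ran from -1.17 to 1.40. In TPM the change was clearer for Hdac8 (0.34 ± 0.10, limma adjusted p = 0.183) than for Hdac4 (0.24 ± 0.13, limma adjusted p = 0.991). The class I share of the HDAC TPM was 88.1 ± 0.62% with SA, against 87.7 ± 0.64% without it (difference 0.43 points, 2-sided exact permutation p = 0.6). The class IIb share, here that of Hdac6 alone, was 1.66 ± 0.098% with SA, against 1.89 ± 0.11% without it, with no overlap (2-sided exact permutation p = 0.1, the smallest possible with 3 libraries a group). The class IIa and class IV shares overlapped between these groups. The erythroid markers summed to 8580 to 9695 CPM with SA, against 12522 to 13510 CPM without it.

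**Figure D5:**
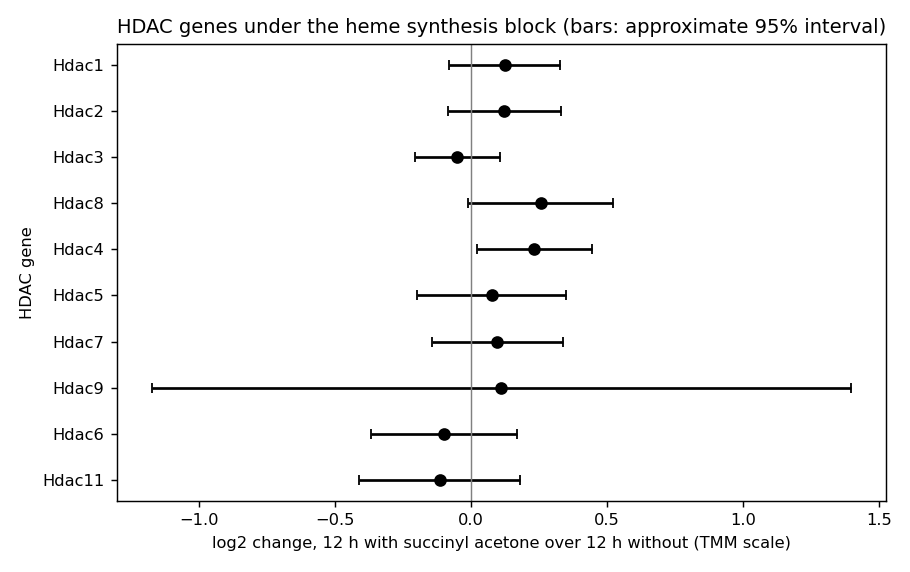
Log2 change (TMM scale, x axis) of each HDAC gene (y axis) at 12 h with SA over 12 h without, with approximate 95% intervals as bars (3 libraries a group). Of the 10 intervals, that of Hdac4 lies above 0 and the other 9 hold 0, and none of the changes passed after adjustment.

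Transcripts of the corepressor complexes in which class I enzymes work were compared at 72 h against 0 h, where 43.3% of all genes were higher and 46.5% lower on the TMM scale, and 5.26% higher and 90.9% lower on the TPM scale. Of 12 NuRD genes, 4 were higher and 6 lower by TMM (median -0.46, all genes -0.13), and all 12 were lower in TPM. These shares, like those of the other complexes on the TPM scale, are near those of all genes. Chd3, a remodelling ATPase, was higher (2.66 ± 0.19, edgeR adjusted p = 3.20e-11), as was Zfpm1 (FOG-1), which joins NuRD to GATA-1 (2.60 ± 0.17, edgeR adjusted p = 6.74e-12). The histone chaperone Rbbp7 (-3.99 ± 0.15, edgeR adjusted p = 4.83e-16) and the scaffold Mta1 (-3.92 ± 0.11, edgeR adjusted p = 4.58e-18) were lower. On the TPM scale Chd3 and Zfpm1 were lower as well, at -1.65 and -1.19.

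Of 14 SIN3 genes, 7 were higher and 6 lower (median 0.42), near the 43.3% and 46.5% of all genes, with Suds3 at 2.53 and Arid4b at 2.50 and with Brms1l at -3.04 and Brms1 at -1.45, and on the TPM scale all 14 were lower. Of 12 CoREST genes, 8 were higher and 4 lower (median 1.00), with Hmg20b at 3.04 and Phf21a at 2.94 and with Rcor2 at -2.58 and Zmym3 at -2.04, and on the TPM scale the 11 tested were all lower. Ncor1, a corepressor that binds Hdac3, was higher on the TMM scale (0.79 ± 0.09, edgeR adjusted p = 4.62e-08) and lower in TPM (-2.94). Of the 2 tested MiDAC genes, partners of Hdac1 and Hdac2 in mitotic cells, Dnttip1 was higher (1.96) and Elmsan1 lower (-0.97), and in TPM both were lower.

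Of 18 tested genes that act on or with class IIa proteins, 9 were higher and 9 lower (median -0.08), close to the 43.3% higher and 46.5% lower of all genes. Mef2d, a MEF2 factor (3.66 ± 0.12, edgeR adjusted p = 8.11e-17), and Sik1, a salt-inducible kinase that phosphorylates class IIa proteins (3.98 ± 0.34, edgeR adjusted p = 6.13e-10), were higher. Neither passed on the TPM scale, where they had 0.34 and -0.04, and 0 of 16 genes were higher there and 14 lower, where 5.26% of all genes were higher and 90.9% lower. Prkd3, a protein kinase D (-4.29 ± 0.11, edgeR adjusted p = 1.56e-18), and Ywhaq, the 14-3-3 protein theta (-2.84 ± 0.10, edgeR adjusted p = 2.24e-16), were lower on both scales.

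Other enzymes and readers of acetyl-lysine were also measured at 72 h against 0 h, where all genes stood at 43.3% higher and 46.5% lower by TMM and at 5.26% and 90.9% in TPM. Of the 7 sirtuins, the NAD-dependent deacylases, 4 were higher and 2 lower (median 0.94). Sirt5, a mitochondrial enzyme that removes succinyl and malonyl groups, was higher on both scales (4.27 ± 0.14, edgeR adjusted p = 8.15e-17, and TPM 0.44, limma adjusted p = 0.00784), and the other 6 sirtuins were lower in TPM. Of 10 acetyltransferases, which add the acetyl groups, 7 were higher and 3 lower (median 0.47), with 0 higher and 9 lower in TPM. Kat6b (3.74) and Crebbp (3.31) were higher, and Kat2a (-4.93) and Hat1 (-4.00) were lower, and in TPM they had -0.16, -0.77, -5.66 and -6.99, all called but Kat6b. Of the 4 BET readers 3 were higher, among them Brd2 (2.81, in TPM -1.09) and the low Brdt (4.25), and Brd3 was lower (-2.34). With SA none of the genes in the 8 lists counted here was called.

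The genes most like the leading member of each class were found from the 7 group means of log2 CPM, on the TMM scale, over 9001 genes. They are a description of curve shape, and all genes were measured in the same libraries. Hdac1 was closest to Ttll1 (Pearson r = 0.998), Brd7 and Yipf6 (r = 0.997 each), and 2031 genes had an r above 0.9. Hdac5 was closest to Sertad3, Cct7 and Zfp36 (r = 0.999 each), with 1552 genes above 0.9. Hdac11 was closest to Plpp1 (r = 0.997), Prkag1 and Podxl (r = 0.995 each), with 361 genes above 0.9. Hdac6 was closest to Hbb-y, an embryonic beta globin (r = 0.993), Trappc2l (r = 0.991) and Sun2 (r = 0.990), with 160 genes above 0.9. The rising and falling shapes of Hdac5 and Hdac1 were thus shared by many more genes than those of Hdac11 and Hdac6.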

How the data were processed

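Both deposited tables were used, each with 1 column per library for 21 libraries and 22483 genes, and no column was left out. The first table deposited holds estimated counts of genes, with no depth scaling (16.7 to 39.3 M a library). Its values need not be whole (78.5% were, tolerance 1e-06) and were rounded. The second holds the TPM of genes, as made by the authors. The submitters' processing notes name kallisto, STAR 2.5.3a, DESeq2 and the builds GRCm38.p5 and mm10. Which tool made which table, and whether strand was used in counting, is not given in the sources used here, so antisense neighbours cannot be told apart. Positions come from GENCODE M21 and promoters from RefSeq.

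Libraries of 1 group differed by more than sampling noise (chi-square per gene 6.22 to 244, Spearman 0.973 to 0.997). Genes passed filterByExpr at a minimum count of 10, which left 12360 (all 10 members), and TMM set the library scaling. Contrasts were 2-sided, in 1 edgeR 4.0.16 quasi-likelihood model of all 21 libraries (R 4.3.3), with Benjamini-Hochberg adjustment over all genes and a threshold of 0.05. Standard errors were taken as the log2 change over the root of its F statistic, and are approximate, as are the 95% intervals. log2(TPM + 1) was tested with limma 3.58.1 for the 9525 genes that averaged 1 TPM or more, and understates changes of low genes. Shares were tested by exact permutation over libraries with SciPy 1.17.1. Alternatives were the size factors of DESeq2 1.42.0, DESeq2 itself, testing all genes without a count filter, leaving globin genes out of the library sizes, a block for replicate number, a fit of the compared libraries alone, a pseudocount of 0.1 or all genes on the TPM scale, a fold of 2, and each library left out. The pipeline was tested on simulated data.

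All 10 members are named. Of each gene list, up to 2 called genes a direction with the largest change and a mean of at least 100 counts are named, and of the genes most like a class's most abundant member, the 3 closest. The list of Hdac3 partners is not reported here as a whole. Members and lists were chosen with earlier results of these data known. Markers summed per group for mast cells lay between 2.80 and 19.4 CPM, for macrophages between 0.482 and 11.1, for neutrophils between 0.0954 and 5.20, for lymphocytes between 0 and 0.467 and for embryonic stem cells between 0.167 and 2.60.

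Same-numbered libraries shifted together around their group's average (9001 genes, correlation over 0.1 for each pair) in 12 h against 0 h (correlation 0.151 to 0.441), 24 h against 12 h (0.337 to 0.521), 48 h against 36 h (0.126 to 0.420), 72 h against 48 h (0.287 to 0.358) and SA (0.387 to 0.426), but not in 36 h against 24 h or 72 h against 0 h. This pairing comes from the data, as no label explains the numbers.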

Additional observations from a re-analysis of the deposited data

How the results depend on the processing

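With each library left out in turn, the count of members called was 4 to 6 at 24 h over 12 h (7 with all libraries). Hdac9 had -0.89 to 0.36 at 12 h over 0 h, -0.11 to 1.14 at 24 h over 12 h, -0.27 to 0.42 at 48 h over 36 h, -0.00672 to 0.69 at 72 h over 48 h and -0.32 to 0.94 with SA, and Hdac8 had -0.00891 to 0.28 at 48 h over 36 h. With a fold of at least 2 the members called were 3 at 12 h over 0 h, 1 at 24 h over 12 h, 1 at 48 h over 36 h and 2 at 72 h over 48 h. With limma on log2(TPM + 1) they were 4 at 72 h over 48 h, also with all genes kept, which gave 4 at 24 h over 12 h too. With log2(TPM + 0.1) they were 4 at 12 h over 0 h and 4 at 24 h over 12 h.

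The sign turned on the log2(TPM + 1) scale for Hdac8 (-0.85) and Hdac6 (-1.55) at 36 h over 24 h, Hdac8 at 48 h over 36 h (-0.40), Hdac5 at 72 h over 48 h (-0.18) and Hdac6 at 72 h over 0 h (-1.29), with the same values when all genes were kept. With a pseudocount of 0.1 these 5 were -1.06, -1.82, -0.57, -0.19 and -1.68. With all genes kept Hdac9 turned as well, to -0.00600 at 24 h over 12 h, -0.0360 at 48 h over 36 h, -0.0205 at 72 h over 0 h and -0.00091 with SA. With the size factors of DESeq2, Hdac3 at 72 h over 48 h was 0.00503. The cause was not tested.

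With the replicate number as a block, 79 of 80 results were kept. For a gene, kept means the same direction and the same side of the threshold. A count of members was kept at a similar value, and a share if its direction was the same. The members called were 9, 7, 9, 6 and 7 in the 5 steps, 10 at 72 h over 0 h and 0 with SA. The 1 change is that of Hdac8 at 12 h over 0 h, given above. Counts of 2 to 23 a library limit Hdac9, and at 72 h counts of 11 to 21 limit Hdac7 and 12 to 19 limit Hdac11.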
